A study of Mus musculus with 6 samples.

Results

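The Rab family is the largest branch of the Ras-like small GTPases. Its members were taken as every protein-coding gene whose symbol is Rab followed by a number with or without a subtype letter, which gave 57 of the 29097 genes in the table, spread over 18 chromosomes, and all 57 carried the annotation GTPase activity. The RNA came from neutrophils of the peripheral blood (PB) of male C57BL/6 mice, 8 weeks old, sorted as CD45+CD11b+Ly6G+ cells. In the ligature-induced periodontitis group (LIP, labelled Lig) silk ligatures had been in place for 14 d, and the control group (Ctrl) was not ligated. Each group had 3 libraries, each made from the pooled cells of 5 mice, so no value belongs to a single animal. The Ctrl libraries held 53059029, 54358483 and 52301060 reads on genes, and the LIP libraries 56504173, 57262379 and 52186555.

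Rab proteins are molecular switches of membrane traffic. In the GTP-bound form a Rab sits on the membrane of a given organelle and recruits effectors that bud, move, tether and fuse vesicles, while exchange factors (GEFs) load it with GTP, GTPase-activating proteins (GAPs) switch it off, and GDP dissociation inhibitors (GDI) carry the inactive, prenylated protein through the cytosol. In neutrophils, which store antimicrobial proteins in several classes of granule and engulf microbes into phagosomes, Rab proteins are known for granule exocytosis and for the maturation of phagosomes.

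The sorted cell type was checked against lists of marker genes. Markers of mature neutrophils were present in every library, with the calcium-binding protein gene *S100a9* the most abundant, and the gene of the sorting marker, *Ly6g*, was listed at 18.7, 19.5 and 18.2 FPKM in the Ctrl libraries and 37.8, 47.9 and 48.3 FPKM in the LIP libraries. The summed level of 21 mature neutrophil genes was 19185 ± 1782 FPKM (fragments relative to gene length and library total, mean ± SD, n = 3 libraries per group) in Ctrl and 58038 ± 2655 FPKM in LIP, and 21 of the 21 were higher in LIP. Transcripts of other blood cells were also present and moved with the group. Summed over 17 B cell genes, led by *Cd74*, the level was 17489 ± 1102 FPKM in Ctrl and 2716 ± 47.9 FPKM in LIP, with 17 of 17 lower. The 19 T cell genes, led by *Trbc2*, summed to 666 ± 31.6 and 118 ± 11.7 FPKM, with 19 of 19 lower. Erythroid genes, led by the haemoglobin gene *Hba-a1*, summed to 184716 ± 3405 FPKM in Ctrl and 19761 ± 399 FPKM in LIP, with 9 of 10 tested genes lower and *Gata1* higher. Platelet genes, led by *Ppbp*, moved the other way, from 1221 ± 141 to 2369 ± 228 FPKM, with 14 of 14 higher, and monocyte and dendritic cell genes, led by *Cd68*, from 229 ± 4.86 to 402 ± 9.62 FPKM, with 9 of 9 tested higher. The NK cell list, led by *Gzma*, stood at 288 ± 27.7 and 277 ± 12.6 FPKM (4 of 9 higher, 0 lower) and the eosinophil and basophil list, led by *Siglecf*, at 16.8 ± 2.37 and 17.6 ± 3.41 FPKM (1 of 7 higher, 1 lower). All 29097 genes of the table had a read in at least 1 library, so no listed gene found there could be at 0 in all. Of the 13 erythroid genes listed, 12 were in the table (*Ahsp* was missing). Of the 10 eosinophil and basophil genes listed, 9 were (*Epx* was missing). In bulk samples, fewer cells of a type and less RNA per cell cannot be told apart, and the part of these other cells in the Rab values below was not tested.

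**Figure D1:**
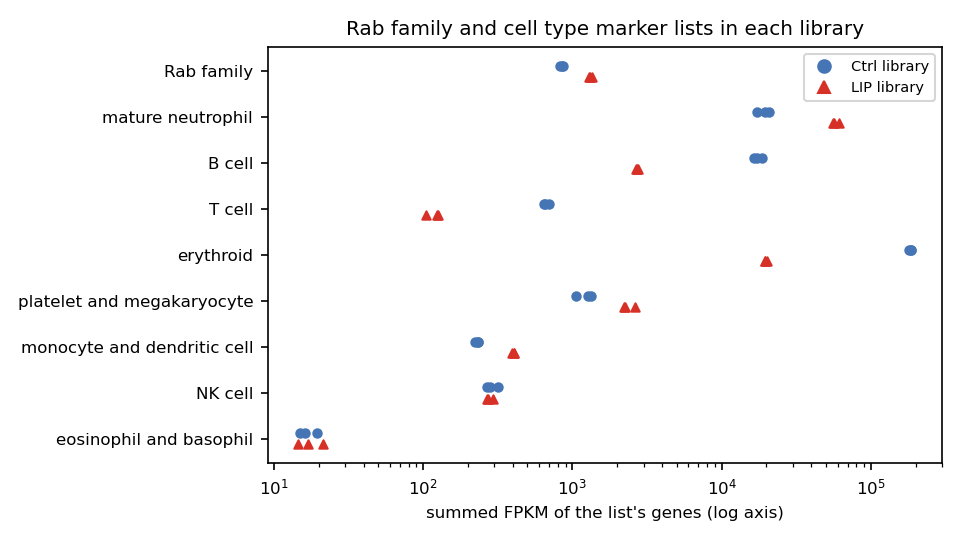
Summed FPKM of the Rab family and of each marker list in each library, on a log axis, with Ctrl libraries as circles and LIP libraries as triangles. The Rab sum was 847 ± 22.3 FPKM in Ctrl and 1323 ± 28.9 FPKM in LIP, a smaller step than that of the neutrophil list, while the lists of neutrophils, platelets and monocytes lay higher in LIP and those of erythroid cells, B cells and T cells lower.

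Because the makeup of the libraries differed, each fold change depends on how the libraries were set to a common scale. The values given are CPM (read counts scaled to library size) with edgeR's TMM factors, and the test is edgeR's quasi-likelihood test over all 10440 genes that averaged 1 FPKM or more, Benjamini-Hochberg adjusted and called at an adjusted p under 0.05. Over all genes tested the median log2 fold change was -0.09 with TMM, -0.42 with library totals, and -1.92 when the scale was set by the 21 mature neutrophil genes. The last of these asks whether a transcript changed relative to the neutrophil genes themselves, and its value is given beside the main results as the neutrophil-scaled log2 fold change.

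Of the 57 Rab genes, 41 passed the level filter, 36 of them with a mean of at least 1 FPKM in both groups and 5 through 1 group only (*Rab2b*, *Rab4a*, *Rab6b* and *Rab30* through Ctrl, *Rab7b* through LIP). With TMM scaling, 24 of the 41 (58.5%) were higher in LIP, against 26.5% of all genes tested, and 3 (7.32%) were lower, against 27.2%, whereas with neutrophil scaling 0 were higher and 33 (80.5%) were lower, against 0.517% and 88.3% of all genes. With library totals 19 (46.3%) were higher and 5 (12.2%) lower, against 18.4% and 39.7% of all genes. The median log2 fold change of the 41 genes was 0.52 with TMM, 0.20 with library totals and -1.29 with neutrophil scaling. These medians lay 0.62, 0.62 and 0.63 above those of all genes, and under each of the 3 scalings 34 of the 41 genes lay above the median of all genes. A change of scaling shifts all genes by about the same amount, so this likeness follows from its construction and is no sign of stability. CPM of all 3 LIP libraries lay above all 3 Ctrl libraries for 25 members, where 30.3% of all genes did so, and below them for 3, where 33.1% did so, and the groups overlapped for 13.

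Most of the abundant members were higher with TMM scaling. Of the 22 members with a mean of at least 10 FPKM, 20 were higher and 0 lower (*Rab10* was lower with library totals), where 45.2% of all genes at this level were higher. Of the 19 tested members below 10 FPKM, 4 were higher, where 17.5% of all genes from 1 to under 10 FPKM were. Together the 57 genes made up 0.301 ± 0.00954% of a Ctrl library's counts and 0.449 ± 0.00802% of a LIP library's. Their summed level was 867, 852 and 823 FPKM in the Ctrl libraries and 1319, 1354 and 1297 FPKM in the LIP libraries, with no overlap between groups. The median coefficient of variation of CPM between the libraries of a group was 13.5% in Ctrl and 11.8% in LIP over the 41 members. For members of at least 10 FPKM it was 11.9% in Ctrl and 5.62% in LIP, and for those below 15.6% and 24.1%.

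**Figure D2:**
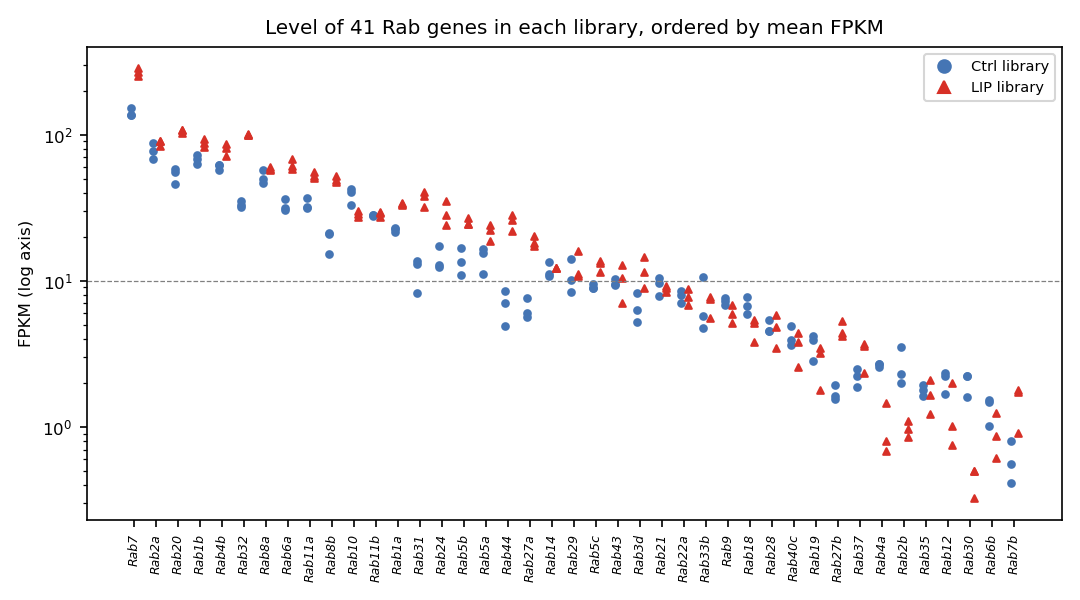
Level of the 41 tested Rab genes in each library in FPKM on a log axis, ordered by mean level, with Ctrl libraries as circles and LIP libraries as triangles. *Rab7* stands at the top, with 136 to 153 FPKM in Ctrl and 253 to 283 FPKM in LIP, and *Rab30*, *Rab2b* and *Rab4a* are among the lowest.

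Per gene length, *Rab7*, the Rab of late endosomes and lysosomes, was the most abundant member in every library, at 153, 136 and 136 FPKM in the Ctrl libraries and 269.6, 283 and 253 FPKM in the LIP libraries. It made up 17.6, 15.9 and 16.6% of the summed Rab FPKM in Ctrl and 20.4, 20.9 and 19.5% in LIP. The next by mean level were *Rab2a* at 77.5 FPKM in Ctrl and 88.3 FPKM in LIP, *Rab20* at 53.0 FPKM in Ctrl and 106 FPKM in LIP, *Rab1b* at 67.7 FPKM in Ctrl and 87.4 FPKM in LIP and *Rab4b* at 60.5 FPKM in Ctrl and 79.6 FPKM in LIP. These neighbours changed order between groups: in Ctrl *Rab2a* led *Rab1b*, *Rab4b* and *Rab20*, and in LIP *Rab20* led, followed by *Rab32* at 99.8 FPKM. In LIP the libraries of *Rab20* (103 to 107 FPKM) lay above those of *Rab32* (98.8 to 101 FPKM), while *Rab2a* (83.9 to 90.6 FPKM) and *Rab1b* (81.7 to 92.9 FPKM) overlapped each other.

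Rab genes of secretory granules had the highest median fold change of the 8 role lists. Of 8 members in this list, 5 were tested and 5 were higher in LIP with TMM scaling, where 26.5% of all genes tested were. Their median log2 fold change was 1.75 (-0.09 over all genes), and relative to the neutrophil genes the median was -0.07. *Rab44*, a large atypical Rab of blood cells with an N-terminal extension (GRCm38, chr17:29114145-29148980, plus strand), was at 34.1, 24.4 and 41.8 CPM in the Ctrl libraries and 134, 159 and 172 CPM in the LIP libraries. The groups were far apart, and *Rab44* had the highest fold change of the family (log2 fold change 2.21 ± 0.19 SE, adjusted p = 6.34e-06). *Rab27a*, which docks granules at the plasma membrane and whose loss causes Griscelli syndrome (chr9:73044854-73097629, plus strand), was at 22.2, 21.7 and 29.0 CPM in the Ctrl libraries and 84.7, 94.3 and 80.3 CPM in the LIP libraries. All 3 LIP libraries lay far above the Ctrl libraries (log2 fold change 1.83 ± 0.16 SE, adjusted p = 5.63e-06). Its paralogue *Rab27b* (chr18:69979131-70141605, minus strand) was at 15.8, 17.2 and 20.0 CPM in the Ctrl libraries and 53.7, 56.3 and 67.7 CPM in the LIP libraries, again with no overlap (log2 fold change 1.75 ± 0.17 SE, adjusted p = 1.35e-05).

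*Rab3d*, a Rab of exocrine secretory granules, was at 25.4, 21.5 and 33.8 CPM in the Ctrl libraries and 58.2, 73.4 and 45.1 CPM in the LIP libraries. The groups did not overlap (log2 fold change 1.13 ± 0.22 SE, adjusted p = 0.00159). Relative to the mean the spread was similar, at 26.9 ± 6.31 CPM in Ctrl and 58.9 ± 14.2 CPM in LIP. *Rab37*, known from mast cell granules, was at 9.57, 13.1 and 11.6 CPM in the Ctrl libraries and 22.9, 15 and 23.7 CPM in the LIP libraries (log2 fold change 0.84 ± 0.25 SE, adjusted p = 0.0172), and it was called in 4 of the 6 fits that left out 1 library and not with library totals. *Rab37* overlaps *Cd300lf*, a myeloid receptor gene on the opposite strand, and whether the counting used strand is not given in the sources used here. Relative to the neutrophil genes, the log2 fold changes were 0.39 for *Rab44*, 0.01 for *Rab27a*, -0.07 for *Rab27b*, -0.70 for *Rab3d* and -0.96 for *Rab37*, with adjusted p of 0.11, 0.96, 0.726, 0.015 and 0.00709. *Rab44*, *Rab27a* and *Rab27b* thus did not pass the test against the neutrophil list in either direction, which does not show that they moved alike. The other members of the list, *Rab3a*, *Rab3b* and *Rab26*, had means below 1 FPKM over the 6 libraries, with *Rab3a* at a mean of 1.32 FPKM in Ctrl and 0.239 FPKM in LIP.

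**Figure D3:**
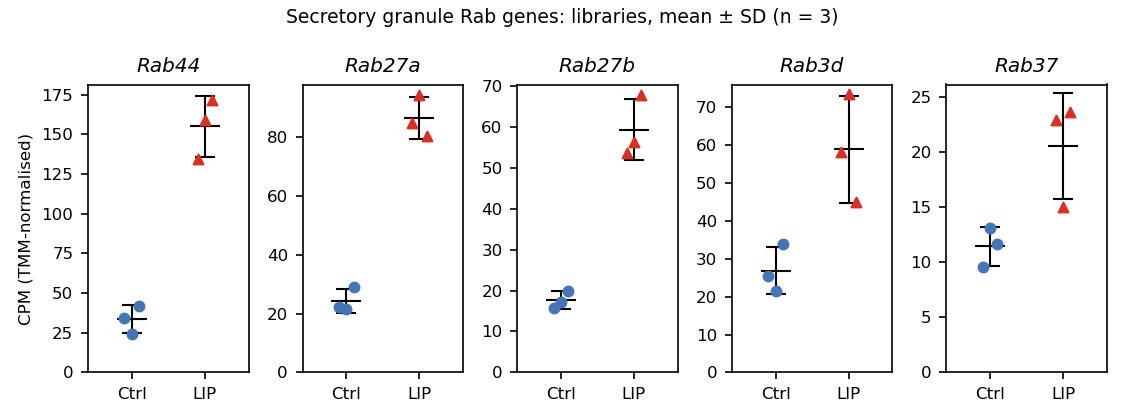
CPM with TMM factors of the 5 tested secretory granule Rab genes in each library, with Ctrl libraries as circles, LIP libraries as triangles, a long bar for the group mean and short bars for ± 1 SD (n = 3). The 3 LIP libraries lie above the 3 Ctrl libraries in each panel, widely apart for *Rab44*, *Rab27a* and *Rab27b* and close to them for *Rab37*.

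The Rab genes of late endosomes and lysosomes (median log2 fold change 1.23) and of lysosome-related organelles (1.21) followed. Of the 3 lysosome-related organelle members only 2 were tested, and 1 was higher, where 26.5% of all genes were. The neutrophil-scaled median of this list was -0.61. *Rab32*, which delivers cargo to melanosomes and other lysosome-related organelles (chr10:10545002-10558265, minus strand), was at 73.3, 80.5 and 73.3 CPM in the Ctrl libraries and 281, 283 and 277 CPM in the LIP libraries. Libraries of a group lay within a few CPM of each other, and *Rab32* had the lowest adjusted p of the family (log2 fold change 1.89 ± 0.10 SE, adjusted p = 3.39e-07), and its neutrophil-scaled value was 0.07. *Rab29*, a partner of the kinase LRRK2, was at 14.1, 20.4 and 12 CPM in the Ctrl libraries and 28.5, 18.9 and 19.6 CPM in the LIP libraries and did not pass the test (log2 0.52, adjusted p = 0.117), with overlapping groups. *Rab7* counts were 379, 349 and 346 CPM in the Ctrl libraries and 849, 885 and 789.7 CPM in the LIP libraries, so that the lowest LIP library was far above the highest Ctrl library (log2 fold change 1.23 ± 0.09 SE, adjusted p = 1.86e-06), and relative to the neutrophil genes the value was -0.59. The table also lists the pseudogene *Rab7-ps1* at a mean of 12.4 FPKM, which can share reads with it.

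Of 7 late endosome and lysosome members, 5 were tested, 3 were higher (26.5% of all genes were) and 0 lower, with a median of 1.23 (neutrophil-scaled -0.59). However, 1 of the 3, *Rab7b*, passed the level filter only through LIP. *Rab24*, an atypical Rab linked to autophagy, rose, with 27.9 ± 5.77 CPM in Ctrl and 70.6 ± 13.7 CPM in LIP (log2 fold change 1.34 ± 0.19 SE, adjusted p = 0.000227, neutrophil-scaled -0.47). It overlaps *Prelid1* on the opposite strand. *Rab7b*, which acts between late endosomes and the Golgi, was at 2.46, 1.9 and 3.63 CPM in the Ctrl libraries and 9.75, 9.92 and 5.04 CPM in the LIP libraries (log2 fold change 1.63 ± 0.41 SE, adjusted p = 0.00653, neutrophil-scaled -0.20). Its levels were low in every library. *Rab9*, which returns mannose-6-phosphate receptors to the Golgi, did not pass the test (log2 0.03, adjusted p = 0.925), nor did *Rab12* (log2 -0.43, adjusted p = 0.399).

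Among the early endosome members, which act in uptake and in young phagosomes, 5 of 7 tested were higher and 0 lower, where 26.5% of all genes and 45.2% of those at 10 FPKM or more were higher, and the median of their log2 fold changes was 0.90, or -0.94 relative to the neutrophil genes. *Rab31*, which works between the Golgi and endosomes (chr17:65651729-65772752, minus strand), was at 47.0, 31.1 and 51.0 CPM in the Ctrl libraries and 148, 174 and 184 CPM in the LIP libraries. The groups were far apart, and *Rab31* had the second-highest fold change of the family (log2 fold change 1.97 ± 0.19 SE, adjusted p = 1.05e-05, neutrophil-scaled 0.14). *Rab20*, a Rab of phagosomes in macrophages (chr8:11453518-11478710, minus strand), was at 60.8, 79.3 and 75.0 CPM in the Ctrl libraries and 180.4, 178 and 172 CPM in the LIP libraries, with no overlap and a narrow LIP range (log2 fold change 1.30 ± 0.13 SE, adjusted p = 1.35e-05, neutrophil-scaled -0.51). The 3 *Rab5* genes, which control fusion of early endosomes, rose, with log2 fold changes of 1.20 for *Rab5b* (adjusted p = 8.34e-05), 0.90 for *Rab5a* (adjusted p = 0.000936) and 0.78 for *Rab5c* (adjusted p = 0.00355). *Rab22a* (log2 0.29, adjusted p = 0.103) and *Rab21* (log2 0.24, adjusted p = 0.204) did not pass the test.

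The 250 bases before the start site are shown for the 3 members with the highest fold changes that have a window in the RefSeq promoter table (*Rab31*, *Rab32* and *Rab27a*), and for *Rab20*, the only higher member whose window matched the interferon-type motif searched. Sequences are from RefSeq on GRCm38.p6, 5′ to 3′ on the strand of the gene, in lower case with motif matches in capitals. They cover chr17:65772753-65773002 (minus strand) for *Rab31*, chr10:10558208-10558457 (minus) for *Rab32*, chr9:73044560-73044809 (plus) for *Rab27a* and chr8:11478641-11478890 (minus) for *Rab20*.
Rab31: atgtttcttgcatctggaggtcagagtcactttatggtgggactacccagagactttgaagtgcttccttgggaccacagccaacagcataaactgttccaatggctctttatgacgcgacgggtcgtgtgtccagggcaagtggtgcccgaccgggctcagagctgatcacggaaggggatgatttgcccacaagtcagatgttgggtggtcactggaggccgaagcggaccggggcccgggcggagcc
Rab32: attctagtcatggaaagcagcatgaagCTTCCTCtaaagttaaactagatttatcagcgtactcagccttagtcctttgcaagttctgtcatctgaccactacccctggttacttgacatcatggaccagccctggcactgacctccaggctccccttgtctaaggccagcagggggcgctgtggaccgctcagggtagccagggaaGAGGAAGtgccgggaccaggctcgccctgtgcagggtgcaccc
Rab27a: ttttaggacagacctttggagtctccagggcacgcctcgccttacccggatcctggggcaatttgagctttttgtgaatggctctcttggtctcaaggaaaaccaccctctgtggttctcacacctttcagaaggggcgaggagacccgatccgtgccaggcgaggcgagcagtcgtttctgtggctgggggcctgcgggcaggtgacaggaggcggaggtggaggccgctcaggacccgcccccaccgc
Rab20: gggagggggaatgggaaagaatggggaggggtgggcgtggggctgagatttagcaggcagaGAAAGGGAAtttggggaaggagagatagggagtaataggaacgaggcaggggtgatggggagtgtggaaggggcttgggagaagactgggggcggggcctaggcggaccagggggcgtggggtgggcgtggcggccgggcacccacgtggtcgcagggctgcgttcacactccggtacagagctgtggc
The windows searched held 250 bases before and 50 after the start site and were found for 46 of the 57 members. Both strands were searched for 3 motifs. GAAANNGAA (ISRE-like, the type bound by interferon-regulated factors) was in 8.56% of all 32851 windows and in 3 of the 46 members (*Rab19*, *Rab20* and *Rab40b*), 1 of them among the 19 higher members with a window. GAGGAAG (PU.1-like, for a master factor of myeloid cells) was in 13.6% of windows and in 8 members, of which *Rab6a*, *Rab20* and *Rab32* were higher. CACGTGA (an E-box of the CLEAR type, known from lysosomal genes) was in 3.77% of windows and in 4 members, of which *Rab5a* and *Rab24* were higher, and its central letters read alike on both strands, so that matches on the 2 strands can overlap. In *Rab32* the PU.1-like letters began 43 and 223 bases before the start site, in *Rab20* the ISRE-like letters began 189 bases before it, and the windows of *Rab31* and *Rab27a* held none of the 3 motifs. A match describes letters only and is not a binding site.

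Of 8 recycling endosome members, 6 were tested, 4 were higher (26.5% of all genes were) and 1, *Rab4a*, lower, with a median of 0.35 (neutrophil-scaled -1.47). *Rab11a*, the general recycling Rab, was at 91.5, 108 and 91.8 CPM in the Ctrl libraries and 189, 198 and 179.6 CPM in the LIP libraries, with no overlap (log2 fold change 0.96 ± 0.11 SE, adjusted p = 5.65e-05). Its paralogue *Rab11b* was at 166, 168 and 168 CPM in the Ctrl libraries and 202, 217 and 213 CPM in the LIP libraries, also without overlap but by a small margin (log2 fold change 0.33 ± 0.10 SE, adjusted p = 0.0145), and its call was lost with library totals (log2 0.01) and in 3 of the 6 fits that left out 1 library. The pseudogene *Rab11b-ps2*, listed at a mean of 17.3 FPKM, can share reads with it. *Rab4b*, of fast recycling, was at 117, 121 and 110.0 CPM in the Ctrl libraries and 206, 189.7 and 169 CPM in the LIP libraries (log2 fold change 0.70 ± 0.11 SE, adjusted p = 0.000474). *Rab4a*, its paralogue, was far lower in level and moved the opposite way, at 4.55, 4.66 and 4.45 CPM in the Ctrl libraries and 3.12, 1.45 and 1.72 CPM in the LIP libraries (log2 fold change -1.12 ± 0.41 SE, adjusted p = 0.0396). It was tested only through its Ctrl values, and its call held in 1 of the 6 fits that left out 1 library. *Rab14*, which works between Golgi and endosomes, was at 174, 149 and 141 CPM in the Ctrl libraries and between 199 and 202 CPM in the LIP libraries, above all of them (log2 fold change 0.37 ± 0.11 SE, adjusted p = 0.017), and it was not called with library totals.

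For exocytosis, 2 of 3 tested members were higher, where 26.5% of all genes were. *Rab8b* was at 94.5, 70.6 and 97.3 CPM in the Ctrl libraries and 298, 277 and 269 CPM in the LIP libraries, widely apart (log2 fold change 1.69 ± 0.14 SE, adjusted p = 3.78e-06, neutrophil-scaled -0.14), while its paralogue *Rab8a*, which carries vesicles from the Golgi to the plasma membrane, was at 220.0, 265 and 212 CPM in the Ctrl libraries and 331, 319.9 and 335 CPM in the LIP libraries (log2 fold change 0.50 ± 0.11 SE, adjusted p = 0.00318, neutrophil-scaled -1.32). *Rab8a* had no overlap between groups, but it was not called with library totals. *Rab10*, which moves glucose transporter vesicles, was at 141, 114 and 139 CPM in the Ctrl libraries and 122, 126 and 114 CPM in the LIP libraries, with overlapping groups (log2 -0.12, adjusted p = 0.413), but with library totals it was called lower (log2 -0.44, adjusted p = 0.0115). *Rab13*, of cell junctions, had a mean below 1 FPKM over the 6 libraries.

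Rab genes of the ER and Golgi held 2 of the 3 members that fell. Of 14, 11 were tested, 4 were higher and 2 lower, where 26.5% and 27.2% of all genes were, with a median of 0.29 (neutrophil-scaled -1.56). *Rab30*, a Golgi Rab (chr7:92741603-92844535, plus strand), was at 20.5, 15.2 and 20.9 CPM in the Ctrl libraries and 5.87, 3.78 and 5.76 CPM in the LIP libraries. Each Ctrl library lay well above each LIP library, and *Rab30* was the one member called lower in all 6 fits that left out 1 library (log2 fold change -1.88 ± 0.28 SE, adjusted p = 0.000291, neutrophil-scaled -3.70). *Rab2b* was at 14.0, 8.21 and 9.37 CPM in the Ctrl libraries and 4.32, 4.86 and 5.46 CPM in the LIP libraries (log2 fold change -1.11 ± 0.32 SE, adjusted p = 0.0134), and it shares its locus with *Tox4* on the opposite strand. Both were tested only through their Ctrl values, and with *Rab4a* they make up the 3 lower members, each at most 1.82 FPKM on average. The list's abundant members rose, among them *Rab6a*, of retrograde traffic to the Golgi (log2 fold change 1.24 ± 0.11 SE, adjusted p = 8.41e-06), and the ER-to-Golgi genes *Rab1a* (log2 0.88, adjusted p = 5.71e-05) and *Rab1b* (log2 0.68, adjusted p = 0.000412). *Rab2a*, also of ER-to-Golgi traffic, was at 156, 184 and 141 CPM in the Ctrl libraries and 233, 231 and 214 CPM in the LIP libraries (log2 fold change 0.50 ± 0.12 SE, adjusted p = 0.00568), without overlap, and was not called with library totals. *Rab43*, *Rab33b*, *Rab19*, *Rab18* and *Rab6b* had log2 fold changes from -0.26 to 0.36 and did not pass the test, although *Rab18* was called lower with library totals (log2 -0.52, adjusted p = 0.0307). Of the ciliary and other members, neither *Rab28* (21.2 ± 2.38 CPM in Ctrl and 25.6 ± 6.36 CPM in LIP, log2 0.27, adjusted p = 0.324) nor *Rab40c* (log2 0.09, adjusted p = 0.796) passed it.

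**Figure D4:**
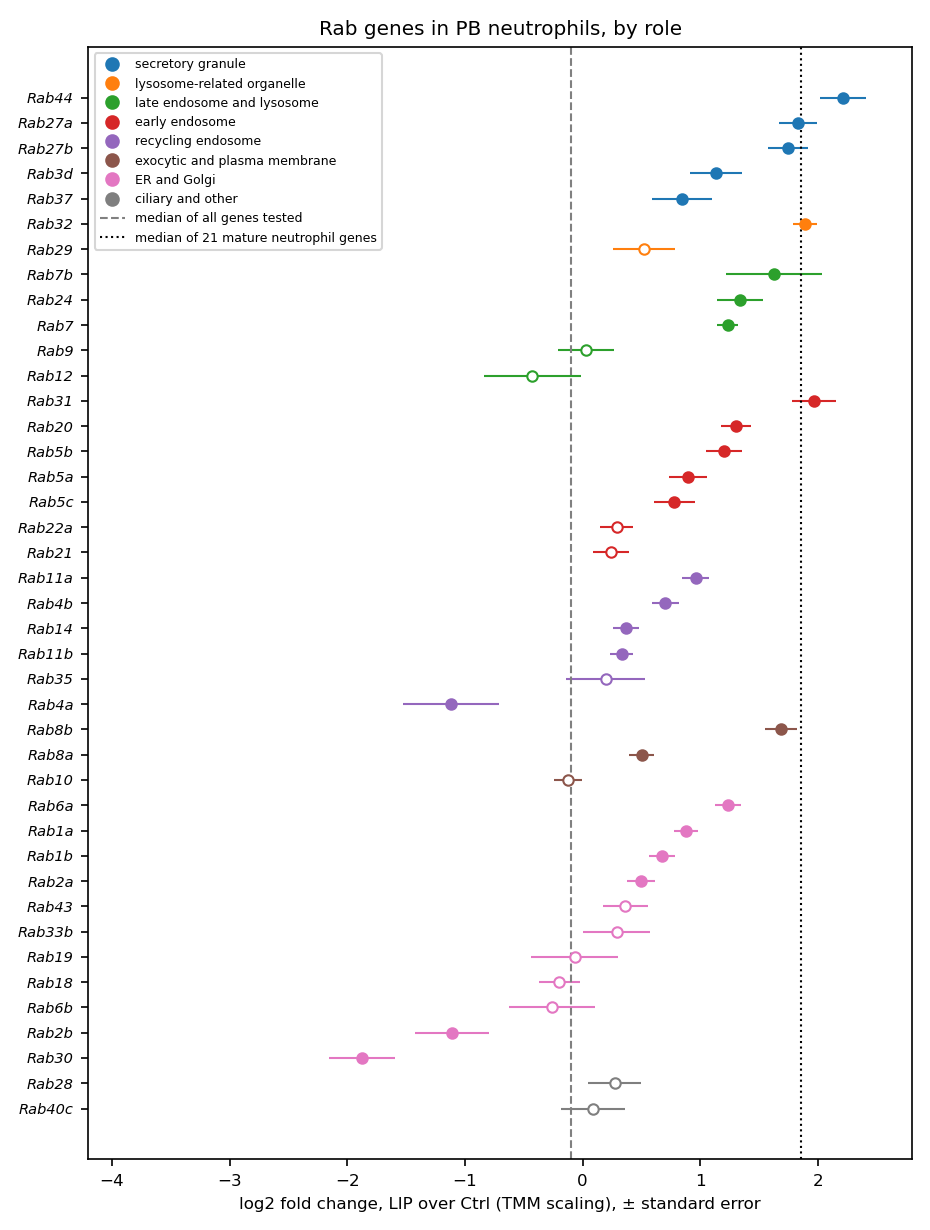
Log2 fold change, LIP over Ctrl with TMM scaling, of the 41 tested Rab genes, grouped by role, with bars of ± 1 SE and filled points for genes that passed the test. *Rab44*, *Rab31* and *Rab32* lie at 1.89 to 2.21, next to the median of the 21 mature neutrophil genes (1.86), and *Rab30*, *Rab2b* and *Rab4a* are the filled points below 0, while with scaling on the neutrophil genes 0 members were higher.

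The 16 members that were not tested had means of at most 0.872 FPKM, 11 of them under 0.1. They include the lysosome-related *Rab38*, the epithelial *Rab17* and *Rab25*, the synaptic vesicle genes *Rab3a* and *Rab3b*, and *Rab13*, *Rab15*, *Rab23*, *Rab26*, *Rab33a*, *Rab34*, *Rab36*, *Rab39*, *Rab39b*, *Rab40b* and *Rab42*. When all genes with a read were fitted, none of the 16 passed the test. *Rab3a* was uneven, with 176, 155 and 182 reads in the Ctrl libraries and 84, 14 and 0 in the LIP libraries (log2 -2.13, adjusted p = 0.328).

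The ratio of closely related Rab genes within a library does not depend on how libraries are scaled to each other. Of 17 paralogue pairs, 11 had both members at a mean of at least 1 FPKM, and for 7 of these the ratio of FPKM did not overlap between groups. The ratios of 60.9% of all pairs of tested genes did not overlap either (10261 genes listed above 0 in all libraries), so the count of 7 is near the background and is no result about the Rab pairs. Moreover, *Rab2b*, *Rab4a* and *Rab6b* passed the level filter only through Ctrl, which bears on 3 of the 7 pairs. With 3 libraries against 3, the smallest exact permutation p (two-sided) is 0.1, and each of the 7 had it (0.157 adjusted over the 11 pairs), so no pair can pass 0.05. The ratio of *Rab8a* to *Rab8b* fell from 2.70 to 1.18, as log2 ratios of 1.23, 1.92 and 1.14 in the Ctrl libraries and 0.17, 0.23 and 0.33 in the LIP libraries. The *Rab22a* to *Rab31* ratio went from 0.69 to 0.211, and that of *Rab4a* to *Rab4b* from 0.0439 to 0.0117. In the other direction went *Rab11a* to *Rab11b* (from 1.19 to 1.84), *Rab2a* to *Rab2b* (from 30.4 to 91.3), *Rab6a* to *Rab6b* (from 24.6 to 71.3) and *Rab1a* to *Rab1b* (from 0.332 to 0.382). *Rab27a* to *Rab27b* stood at 3.77 in Ctrl and 4.03 in LIP, and the groups overlapped, since the log2 ratios of the LIP libraries were 2.12, 2.20 and 1.71 and the lowest Ctrl library had 1.80 (exact permutation p = 0.6, two-sided). The ratios of *Rab5a* and *Rab5b* to *Rab5c* and of *Rab7* to *Rab7b* also overlapped (exact permutation p = 0.7, 0.2 and 0.3). Since the pairs hold the same genes as the fold changes above, they are not independent of them.

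**Figure D5:**
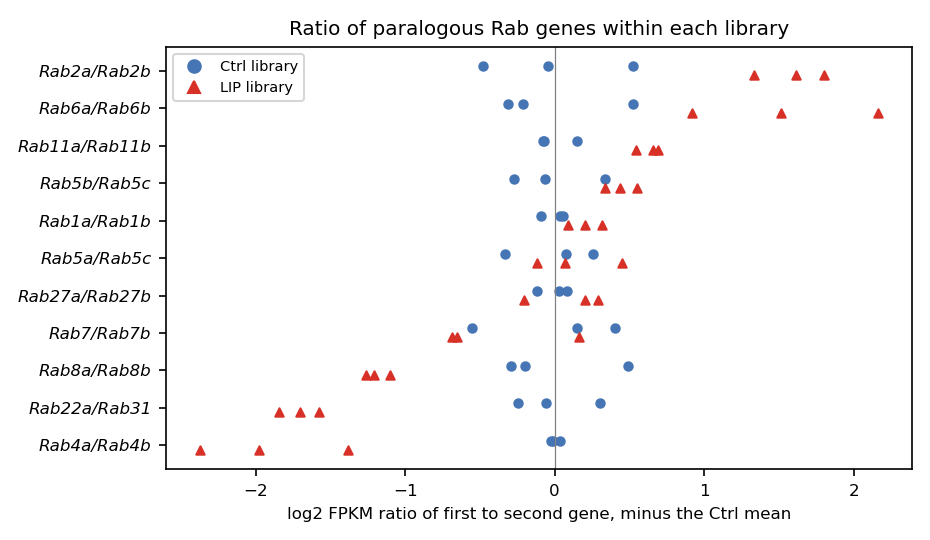
Log2 ratio of the FPKM of 2 Rab paralogues within each library for the 11 pairs with both members at a mean of at least 1 FPKM, with Ctrl libraries as circles and LIP libraries as triangles. The groups do not overlap for 7 pairs, such as *Rab8a* to *Rab8b*, a share near that of all gene pairs (60.9%), and overlap for *Rab27a* to *Rab27b*.

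Location terms in the table's own annotation, picked after the values had been seen, gave a view that the role lists did not use. Of 15 tested members with the term phagocytic vesicle, 11 were higher with TMM scaling and 0 lower, where 59.7% of all 67 tested genes with the term were higher. For phagocytic vesicle membrane it was 8 of 12 (60.5%) and for secretory granule 2 of 3 (56.4%), near the shares of all genes with these terms. For melanosome the count was 8 of 10 (44.4% of all genes with the term), for late endosome 5 of 7 (45.0%), for early endosome 7 of 10 (39.8%), for lysosome 4 of 6 (43.7%) and for recycling endosome 6 of 10 (46.2%), with 1 lower. Of 23 members annotated to the Golgi apparatus, 12 were higher and 2 lower (35.6% of all genes with the term were higher). A member may hold several terms, so these counts overlap. The shares of all genes with a term include the Rab members themselves, such as 12 of the 38 genes for phagocytic vesicle membrane. Each share is thus drawn toward the count of members beside it.

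The genes that act on Rab proteins went both ways. Of 149 such partner genes in 9 lists, 139 were in the table and 100 were tested, and 32 (32.0%) were higher and 24 (24.0%) lower in LIP with TMM scaling, near the 26.5% and 27.2% of all genes. Their median log2 fold change was 0.16. With neutrophil scaling 0 were higher and 89 lower. In the list of GDI, escort protein and prenylation genes, 3 of 7 were higher and 1 lower. *Chm* (log2 0.95, adjusted p = 0.00746), the escort protein whose loss causes choroideremia, rose, and *Rabggtb* (log2 -0.94, adjusted p = 0.0218), a subunit of the prenylating enzyme, fell. *Rabggtb* was called in 2 of the 6 fits that left out 1 library.

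Of the exchange factors, 8 of 25 (32.0%) were higher and 5 (20.0%) lower, near the 26.5% and 27.2% of all genes, with a median of 0.02. The DENN-domain genes *Dennd5a* (log2 1.38, adjusted p = 7.28e-06) and *Dennd3* (log2 1.34, adjusted p = 0.000341) rose, and *Dennd6b* (log2 -2.11, adjusted p = 0.00325) and *Dennd2d* (log2 -1.58, adjusted p = 0.0002) fell. Of the GAPs, most of them with a TBC domain, 9 of 25 (36.0%) were higher and 6 (24.0%) lower, with a median of 0.39, so neither list is read as a result beyond the genes named. *Tbc1d2b* was at 10.5, 12.9 and 17.0 CPM in the Ctrl libraries and 61.3, 50.6 and 58.1 CPM in the LIP libraries, with no overlap (log2 fold change 2.07 ± 0.21 SE, adjusted p = 1.58e-05), and *Tbc1d14* (log2 1.68, adjusted p = 0.000116), of autophagy, also rose, while *Usp6nl* (log2 -1.42, adjusted p = 0.0036), a GAP of *Rab5*, and *Tbc1d22b* (log2 -1.32, adjusted p = 0.021) fell. Of the 3 tested LRRK kinase and Rab phosphatase genes, 0 were called.

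Effectors, which a GTP-bound Rab recruits, were counted in small lists, to be read against the 26.5% of all genes that were higher and the 27.2% that were lower. Of the effectors of Rab27 and Rab3, 2 of 4 were higher and 1 lower. *Sytl4* (log2 1.73, adjusted p = 0.0022), also called granuphilin, and *Unc13d* (log2 0.61, adjusted p = 0.0191), or Munc13-4, which primes granules for fusion, rose, and *Sytl1* (log2 -1.07, adjusted p = 0.049) fell, a call that held in 1 of the 6 fits that left out 1 library. Among effectors of Rab11, Rab14 and Rab8, 5 of 9 were higher and 2 lower, with a median of 0.74. *Rab11fip1* was at 148, 137 and 169 CPM in the Ctrl libraries and 462, 407 and 433 CPM in the LIP libraries, far apart (log2 fold change 1.52 ± 0.11 SE, adjusted p = 1.93e-06), and *Rab11fip5* (log2 2.02, adjusted p = 0.00114) rose, while another of this family, *Rab11fip2* (log2 -1.81, adjusted p = 0.00442), and the myosin gene *Myo5a* (log2 -0.59, adjusted p = 0.0276) fell.

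For effectors of Rab4, Rab5, Rab22 and Rab31, 2 of 11 were higher and 4 lower (median -0.21, against 26.5% higher and 27.2% lower of all genes). *Gripap1* (log2 0.96, adjusted p = 5.02e-05) and *Eea1* (log2 0.81, adjusted p = 0.008), the tether of early endosomes, rose, and *Rabep2* (log2 -1.29, adjusted p = 0.000119) and *Appl2* (log2 -0.99, adjusted p = 0.0317) fell. For effectors of Rab7, 3 of 9 were higher and 3 lower (median -0.10). *Vps35* (log2 0.63, adjusted p = 0.025), of the retromer that returns cargo from endosomes, and *Plekhm2* (log2 0.62, adjusted p = 0.0257) were higher. *Rubcn*, which restrains autophagosome and endosome maturation, was at 70.4, 55.6 and 53.6 CPM in the Ctrl libraries and 18, 9.21 and 17.5 CPM in the LIP libraries, with no overlap (log2 fold change -2.01 ± 0.26 SE, adjusted p = 8.95e-05), and *Wdr91* (log2 -1.39, adjusted p = 0.00164) also fell. Of the effectors of Rab1, Rab2 and Rab6, 0 of 7 were higher and 2 lower, *Gorab* (log2 -1.91, adjusted p = 0.00468) and the golgin gene *Tmf1* (log2 -0.34, adjusted p = 0.0375).

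Of the 41 tested members, 10 overlap another gene with a mean of at least 1 FPKM, namely *Rab6a*, *Rab7*, *Rab10*, *Rab11b*, *Rab20*, *Rab31* and *Rab44* besides *Rab2b*, *Rab24* and *Rab37*, and reads in the overlap may belong to either gene.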

How the data were processed

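Smart-seq2 makes cDNA from whole mRNA molecules and multiplies it by PCR with no molecular identifiers, so PCR copies are counted as reads. The values deposited by the authors are raw counts of reads on each gene, not normalized, and FPKM, the same counts relative to gene length and library total. The submitters' processing notes name cutadapt 1.9, FastQC and GRCm38, while the aligner, the counting tool and the use of strand are not given in the sources used here. No column of the table was left without a sample. Where a gene name occurred on several rows (53 names), all rows stayed in the fits and in the shares of all genes. For partner genes, marker genes and paralogue pairs, the row of the higher mean FPKM was used.

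Counts were tested with edgeR 4.0.16 (R 4.3.3) by the quasi-likelihood test with TMM factors and no replicate block, on the 10440 genes that averaged 1 FPKM or more. Adjusted p-values are Benjamini-Hochberg values over all 10440 genes, and SE is the standard error of the log2 fold change. The common biological coefficient of variation was 0.265. Counting error is small against it at totals of 52186555 to 57262379 counts if reads are taken as independent, which PCR copies are not. Libraries of a group differed beyond the sampling noise of reads (chi-square per gene from 51.9 to 126). That noise covers read counting only and the libraries are separate pools, so no conclusion is drawn from the excess. The p-values measure the spread between pools of 5 mice. Same-numbered libraries of the 2 groups share only a number.

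The members, role, partner and marker lists, and motifs were chosen with earlier results of these data known. Genes named are *Rab27a*, all tested secretory granule members, the 6 highest and 6 lowest fold changes among called members, the most abundant member of each role, and the 2 highest and 2 lowest called partners of each list. Where a list had fewer called genes, all of them are named, and other members are named to account for the family. The result of 1 partner gene is not reported here. Alternatives were library totals, median-of-ratios factors, scaling on the neutrophil genes, DESeq2 1.42.0, limma 3.58.1 on log2(FPKM + 1) and log2(FPKM + 0.1), other filters, a replicate block, and fits without each library in turn.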

Additional observations from a re-analysis of the deposited data

How the results depend on the processing

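When libraries were set to equal mature neutrophil counts, the 24 higher Rab genes became 0 and the 3 lower became 33, and the 32 higher and 24 lower partner genes became 0 and 89. By construction this scaling moves every gene down together (median of all genes -0.09 before and -1.92 after). Among the 19 named members, this scaling turned the sign of the log2 fold change for *Rab2a* (-1.33), *Rab3d* (-0.70), *Rab4b* (-1.12), *Rab7* (-0.59), *Rab8a* (-1.32), *Rab8b* (-0.14), *Rab11b* (-1.49), *Rab14* (-1.46), *Rab20* (-0.51), *Rab27b* (-0.0699), *Rab28* (-1.54) and *Rab37* (-0.96). Of these, *Rab8b* and *Rab27b* passed the test in neither direction there. Every other member called higher turned too, such as *Rab1b* (-1.14) and *Rab6a* (-0.59), except *Rab27a*, *Rab31*, *Rab32* and *Rab44*. Of the named members, *Rab28*, which was not called, also changed sign with library totals (-0.0434) and in limma with a pseudocount of 0.1 (-0.0574) and of 1 (-0.0445). With library totals the sign also turned for *Rab9*, *Rab21*, *Rab22a*, *Rab33b*, *Rab35* and *Rab40c*, which were not called under either scaling. Lower Rab genes were 5 with library totals (*Rab10* and *Rab18* added). They were 0 with a mean FPKM of at least 5, a filter that leaves out *Rab2b*, *Rab4a* and *Rab30*. Higher partners were 21 in limma with a pseudocount of 0.1, 21 with 1, and 17 with a mean FPKM of at least 5. Lower partners were 7 with that filter and 15 with no filter, and paralogue pairs without overlap were 4 with that filter, which leaves fewer pairs. The cause was not tested where the setting does not itself remove genes.

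Leaving out 1 library gave 22 to 25 higher and 1 to 3 lower Rab genes (1 without Ctrl replicate 1), 28 to 32 higher and 16 to 21 lower partners, and 7 to 9 pairs. With the replicate block, 24 Rab genes were higher and 2 lower, *Rab4a* being lost (adjusted p = 0.0509), and 32 partners were higher and 22 lower. The same-numbered libraries correlated in their deviations at -0.0083, 0.0444 and 0.0210, so the numbers do not pair the pools. Of 298 values for the 19 named members under the alternatives, 246 kept direction and call, 37 kept direction but not the call, and 15 changed sign. The 16 members under the level filter were left out by their FPKM, and 3 libraries a group limit exact tests to p = 0.1.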
